A study of Mus musculus with 2 samples.

Results

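The replication-dependent histone genes supply the histones that package newly copied DNA. They were taken as the GENCODE mouse release 21 protein-coding genes whose symbols begin with Hist1h, Hist2h, Hist3h or Hist4h, which gave 67 of 21938 protein-coding genes. Chromatin immunoprecipitation and sequencing (ChIP-seq) was used in the whole adult liver of healthy mice to map GATA4, a zinc-finger transcription factor that recognises the DNA letters WGATAR (W is A or T, R is A or G). The 2 samples form 1 group, labelled as biological replicates 1 and 2, and carry the same tissue and donor identifiers, so differences between them may be technical. Age is given as unknown and sex was not collected. Whole liver mixes hepatocytes with endothelial, stellate and other cells, and a peak cannot be placed in any one of them.

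In dividing cells these genes are transcribed mostly in S phase, when DNA is copied, and their short mRNAs end in a conserved stem-loop in place of a poly(A) tail. H2A, H2B, H3 and H4 form the core of the nucleosome and H1 binds the DNA that links nucleosomes. The genes lie in clusters of many near-identical copies, and H2A and H2B genes often stand head to head with a promoter between them. Their promoters are known for CCAAT and TATA boxes, the octamer ATTTGCAT in H2B genes and an H4-specific element. Most adult liver cells are not dividing.

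The 67 genes comprised 6 H1, 18 H2A, 18 H2B, 12 H3 and 13 H4 genes. On chromosome 13 the Hist1 genes fell into a proximal stretch of 23 genes over 327.9 kb and a distal stretch of 31 genes over 403.8 kb. The Hist2 cluster held 10 genes on chromosome 3, Hist3 held 2 on chromosome 11, and Hist4h4 stood alone on chromosome 6. The label fitted the sequences: a stem-loop motif lay within 300 bp after the stop codon in 65 of 67 histone genes, against 7 of 21871 other genes (0.032%). The motif was not found there in Hist1h2an and Hist2h2be. A single exon was annotated for 62 of 67 histone genes, against 5.97% of the others. The list also takes in testis forms such as Hist1h1t, Hist1h2aa and Hist1h2ba.

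Histone genes are similar to one another in sequence, and this can bear on where reads are placed. In the 1 kb around the start site, over 10% of the 32-base words occurred elsewhere in the genome for 57 of 67 histone genes (85.1%), against 17.4% of other genes. The median share of such repeated words was 36.4% at histone genes and 0.0% at other genes. How long the reads were, and what was done with reads that map to several places, is not given in the sources used here, and the part of repeated sequence in the results was not tested.

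Sequences at histone summits of the optimal list are shown first, because they display what the DNA under a peak holds. They are 4 of the 5 distinct peaks, and the strongest one, in an untranslated region, is shown in part with its gene further on. Each spans 50 bases to either side of a summit, on the plus strand of GRCm38.p6 (mm10), with capitals as stated. The first lies between Hist1h2bk and Hist1h2ah at chr13:22035773-22035873, with WGATAR matches in capitals on both strands. The second lies at the start of Hist1h4c at chr13:23698388-23698488, has no WGATAR match and therefore no capitals. The third lies upstream of Hist1h3a at chr13:23762456-23762556, with its CCAAT box in capitals on the reverse strand. The fourth lies between Hist1h3a and Hist1h1a at chr13:23762658-23762758, with WGATAR in capitals.
Hist1h2bk and Hist1h2ah: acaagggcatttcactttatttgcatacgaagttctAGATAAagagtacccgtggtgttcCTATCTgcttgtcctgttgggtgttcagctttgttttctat
Hist1h4c: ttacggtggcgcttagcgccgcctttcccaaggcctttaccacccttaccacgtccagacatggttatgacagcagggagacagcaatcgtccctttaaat
Hist1h3a: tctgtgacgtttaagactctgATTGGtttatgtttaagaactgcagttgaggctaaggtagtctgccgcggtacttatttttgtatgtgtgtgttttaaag
Hist1h3a and Hist1h1a: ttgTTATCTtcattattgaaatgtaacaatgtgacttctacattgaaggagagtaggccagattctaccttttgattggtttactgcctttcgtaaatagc

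Few histone genes had a GATA4 summit at their promoter. The optimal list holds peaks that the authors kept by the irreproducible discovery rate (IDR), a measure of how well peaks recur between repeats, at a threshold of about 0.05 by the deposited scores. In it 6 of 67 histone genes (8.96%, 95% Wilson interval 4.17 to 18.19) had a summit within 1 kb of an annotated start, against 22.4% of other genes and 22.4% of all protein-coding genes. Other genes matched on promoter GC, over 500 bp to each side of the start site and in bins of 5 points, had a share of 23.4%, at which 15.7 histone genes would be counted. The 6 genes shared 5 distinct peaks, counted by summit, although the 2 at Hist1h3a have overlapping intervals. The genes were Hist1h2be, Hist1h2bk, Hist1h2ah, Hist1h4c, Hist1h3a and Hist1h1a, all on chromosome 13, and every family had at least 1 of them. Presence in the optimal list does not mean that a peak was seen in both replicates. Hist1h2bk, Hist1h2ah, Hist1h3a and Hist1h1a had no entry within 1 kb even in replicate 1's relaxed list, which includes background. The interval covers counting error only and treats genes as independent, although neighbours share peaks.

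The size of this gap depended on which other genes stood beside the histone genes. Over 10 matches computed on the optimal list, the share of other genes ranged from 5.75% to 39.5%. In 8 of 10 it was above the histone share of 8.96%, and in 5 of 10 it was above the histone interval. Divergent genes of like GC had 39.5% and genes of like CpG content 39.1%. Genes with 1 start site had 20%, genes matched on GC from 250 bp before to 50 bp after the start had 12.4%, and single-exon genes had 9.45%. When repeated words were matched with GC in 4 classes, the share of other genes was 8.59%, or 5.75% with GC taken from 250 bp before to 50 bp after the start. The share of other genes thus lay above the histone interval under the match on GC over 1 kb. It lay inside that interval with GC near the start, with single-exon genes and with repeated words matched. The matches on repeated words were chosen after seeing the data, and what accounts for the gap was not tested.

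**Figure D1:**
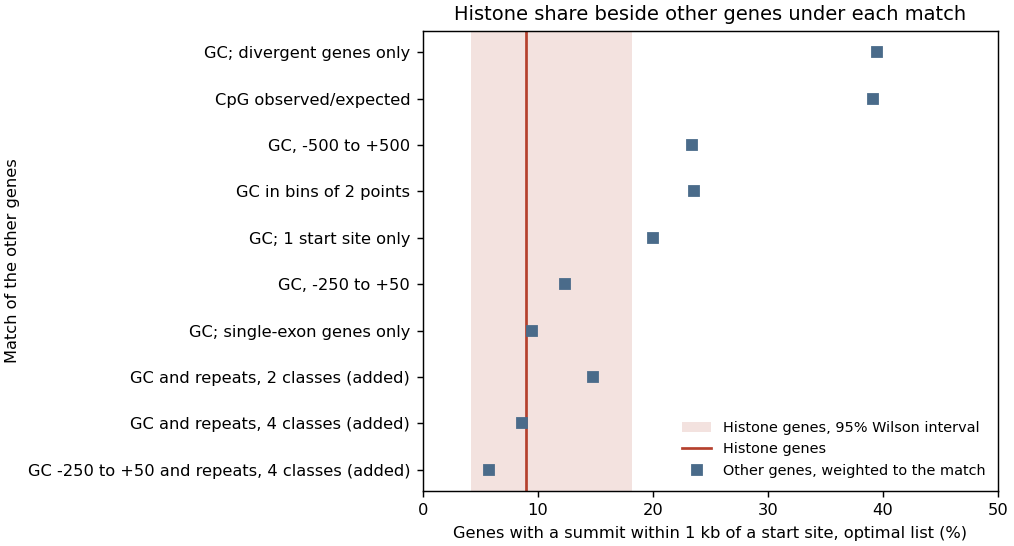
Percent of genes with an optimal-list summit within 1 kb of an annotated start: the line and band are the 67 histone genes (8.96%, 95% Wilson interval 4.17 to 18.19), and each square is the share of other genes under the match named on the left. Squares run from 39.5% at divergent genes to 5.75% when GC near the start and repeated words were matched together.

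The shares were also counted in classes of repeated sequence. Among promoters with at most 10% repeated words, 2 of 10 histone genes (20%) had an optimal summit, against 16.1% of other genes of like GC in that class and 25.8% of all others in it. From 10 to 30%, it was 1 of 16 histone genes (6.25%), against 16.5% at like GC and 13% of all others. From 30 to 50%, it was 2 of 21 histone genes (9.52%), against 6.96% at like GC and 3.77% of all others. Above 50%, it was 1 of 20 histone genes (5%), against 0.227% at like GC and 0.527% of all others. Each class rests on 1 or 2 histone genes, and in the least repeated class the direction turned with the match on GC.

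Lists from each replicate differed in length, and the histone counts differed with them. Replicate 1's thresholded list held 4287 peaks and no summit at any of the 67 histone genes (0.0%, interval 0.0 to 5.42), beside 1.74% at other genes of like GC and 1.51% of all protein-coding genes. At that share 1.2 histone genes would be counted. Replicate 2's list held 26314 peaks and 9 histone genes (13.4%, interval 7.23 to 23.6), beside 28.6% at other genes of like GC and 27.6% of all protein-coding genes. The 9 genes shared 10 distinct peaks, again counted by summit, with overlapping intervals at Hist1h4h and at Hist1h2be. The conservative list, with 9234 peaks, held 1 histone gene (1.49%), beside 5.01% at other genes of like GC and 4.32% of all protein-coding genes. No histone gene had a summit in the lists of both replicates, and 4 had one in both the optimal list and replicate 2's list. In any thresholded list used here 11 had one, which leaves 56 with none. Shares over all genes for these overlaps are not given here. Replicate 1's list, at 1.51% of all protein-coding genes, leaves little room for an overlap in any set of this size.

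**Figure D2:**
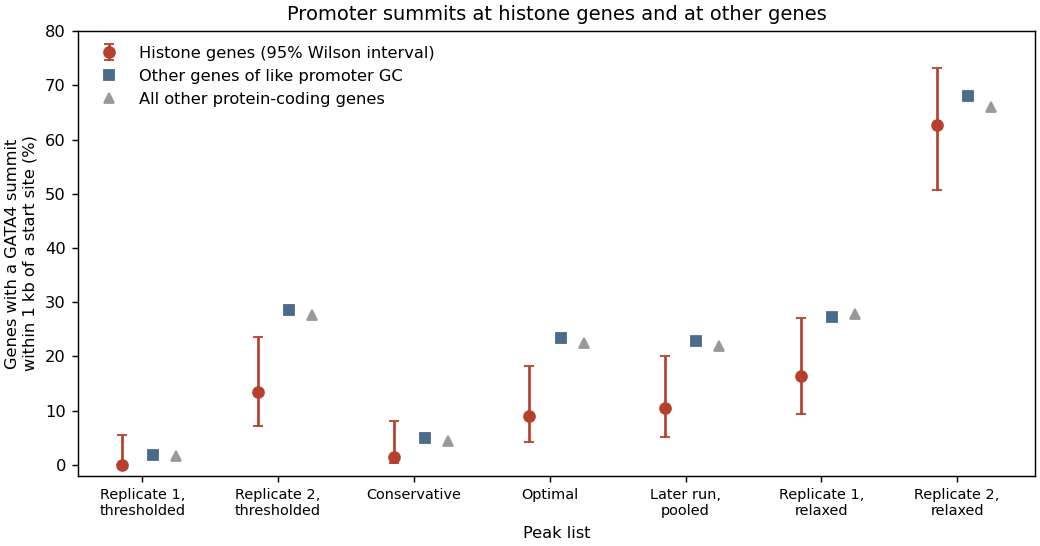
Percent of genes with a GATA4 summit within 1 kb of an annotated start in each of 7 peak lists: circles are the 67 histone genes with 95% Wilson intervals, squares other genes of like promoter GC, triangles all other genes. The histone circle lies below both in every list, at 8.96% against 23.4% and 22.4% in the optimal list.

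The strongest histone peak of the optimal list belonged to Hist1h2be, an H2B gene. Its summit lay at chr13:23621337, 213 bp upstream of an annotated start, with a signal score of 35.3 and rank 12291 of 24050. The score is the authors' peak strength, deposited without a unit, and serves here only to rank peaks within a list. That start, however, lies 35.1 kb from the start codon of Hist1h2be, and the summit fell in the 3′ untranslated region of Hist1h1e, a linker histone gene. No optimal summit lay within 1 kb of the Hist1h2be start codon. Measured from start codons in place of annotated starts, 4 of 67 histone genes (5.97%) had an optimal summit, namely Hist1h2ah, Hist1h2bk, Hist1h4c and Hist1h3a. Measured in the same way, 16.5% of other genes of like GC and 16.1% of all genes with an annotated start codon had one. The Hist1h2be peak was the only histone peak in the conservative list, at rank 8311 of 9234. Its summit sits beside a WGATAR match, shown in capitals in the 21 bases at chr13:23621327-23621347, plus strand.
Hist1h2be: gcacgatcgCTATCAaacatg

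The peak between Hist1h2bk and Hist1h2ah, a head-to-head H2B and H2A pair, had its summit at chr13:22035823. It lay 47 bp upstream of Hist1h2bk and 255 bp upstream of Hist1h2ah, with a signal score of 31.6 and rank 14401. The window printed above holds 2 WGATAR matches, beginning 14 bp before and 10 bp after the summit, and an octamer ATTTGCAT. Replicate 2's list had the same peak at 24.3, rank 15299, and replicate 1's relaxed list had no entry there.

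Hist1h4c, an H4 gene, had its summit 16 bp inside the gene at chr13:23698438, in coding sequence, with a signal score of 29.1 and rank 16047. No WGATAR match lay within 50 bp. Hist1h3a, an H3 gene, had one summit 120 bp upstream at chr13:23762506, with 26.5 and rank 18048, and another 322 bp upstream at chr13:23762708, with 12.0 and rank 23471. The weaker of these was also the only peak counted for Hist1h1a, a linker histone gene, whose start lay 958 bp away. Hist1h1a was thus the gene just inside the 1 kb limit, and Hist1h1e and Hist1h4a, with their nearest optimal summits at 1221 and 1276 bp, were just outside it. Hist1h3a and Hist1h1a had no summit in any other thresholded list used here and no entry in replicate 1's relaxed list.

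**Figure D3:**
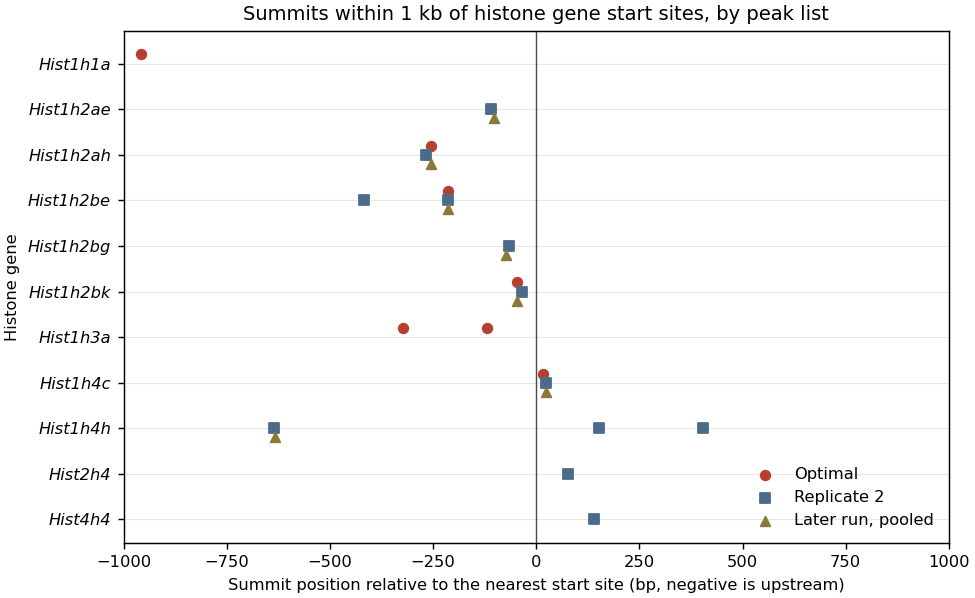
Position of each GATA4 summit relative to the start site, in bp, for the 11 histone genes with a summit in the optimal list (circles), replicate 2's list (squares) or the later pooled list (triangles). Hist1h4c, Hist2h4 and Hist4h4 have summits just inside the gene, and those of the H2A and H2B pairs lie upstream.

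Histone peaks were of middling to low strength among promoter peaks. The median percentile of the 5 distinct optimal peaks was 43.1 among all promoter peaks of the list, on a scale where 100 is the strongest, with a range of 3.9 to 59.9. None ranked above 12291 of the 24050 optimal peaks.

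Replicate 2's list added 5 histone genes to those of the optimal list, and 3 of them encode H4. Hist2h4 had a summit 78 bp inside the gene at chr3:96263233, with a signal score of 24.4 and rank 15236 of 26314. Hist4h4 had one 141 bp inside at chr6:136804274, with 19.8 and rank 19689. Both lay in coding sequence. Hist1h4h had 3 summits, at 635 bp upstream with 21.2, at 151 bp inside with 14.8 and at 403 bp inside with 6.0. The upstream summit lay inside a methionine transfer RNA gene, n-TMcat9, and 37.1% of the 32-base words in its window were repeated elsewhere, against 54.3% at the summit 151 bp inside. Hist1h2bg and Hist1h2ae, an H2B and H2A pair, shared a summit 66 and 110 bp upstream, with 21.1 and rank 18374.

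The H4 genes and the H2B and H2A pair gave different kinds of DNA under the summit. The first sequence is the Hist2h4 window at chr3:96263183-96263283, plus strand, which lies wholly in coding sequence and carries no capitals. The second is the Hist1h2bg and Hist1h2ae window at chr13:23571280-23571380, plus strand, with the octamer ATTTGCAT in capitals.
Hist2h4: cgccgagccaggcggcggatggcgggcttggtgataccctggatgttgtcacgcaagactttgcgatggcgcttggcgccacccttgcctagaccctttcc
Hist1h2bg and Hist1h2ae: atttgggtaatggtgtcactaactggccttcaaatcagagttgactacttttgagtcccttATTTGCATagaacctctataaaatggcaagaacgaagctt

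The relaxed lists, which hold 300000 entries per replicate including background, show weaker signal at more genes. In replicate 1's relaxed list 11 of 67 histone genes (16.4%) had an entry, beside 27.3% at other genes of like GC and 27.8% of all protein-coding genes. In replicate 2's relaxed list 42 of 67 (62.7%, interval 50.72 to 73.28) had one, beside 68.1% at other genes of like GC and 66.0% of all protein-coding genes. There the histone share was close to its background. In all, 10 histone genes had an entry in both relaxed lists, 32 in replicate 2's alone, 1 in replicate 1's alone, and 24 in neither. Shares over all genes for these combinations are not given here.

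Median scores of these entries lay slightly below those at other genes. The median was 5.64 at histone genes and 6.06 at other genes in replicate 1, and 13.51 at histone genes and 14.95 at other genes in replicate 2. Scores come from separate lists and are not compared between replicates. Hist1h2be had the highest histone score in replicate 1 (10.49), followed by Hist4h4 (9.32), Hist1h4c (8.56) and Hist2h4 (6.7). In replicate 2 the Hist1h2bk and Hist1h2ah peak was highest (26.55), followed by Hist1h4c (25.83), Hist1h3a (23.57), Hist2h4 (21.65) and Hist1h2be (21.3). Hist1h4c, Hist2h4, Hist4h4 and Hist1h2be thus had entries in both replicates.

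Each family had entries in both relaxed lists. These counts stand beside shares over all protein-coding genes of 27.8% in replicate 1 and 66.0% in replicate 2, and no difference between families was tested. H4 genes had 4 of 13 in replicate 1 and 9 of 13 in replicate 2, and H3 genes 3 of 12 and 6 of 12. H2A genes had 1 of 18 in replicate 1 and 12 of 18 in replicate 2, and H2B genes 2 of 18 and 11 of 18. H1 genes had 1 of 6 in replicate 1, Hist1h1c at 4.65, and 4 of 6 in replicate 2, the highest again Hist1h1c at 16.9.

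**Figure D4:**
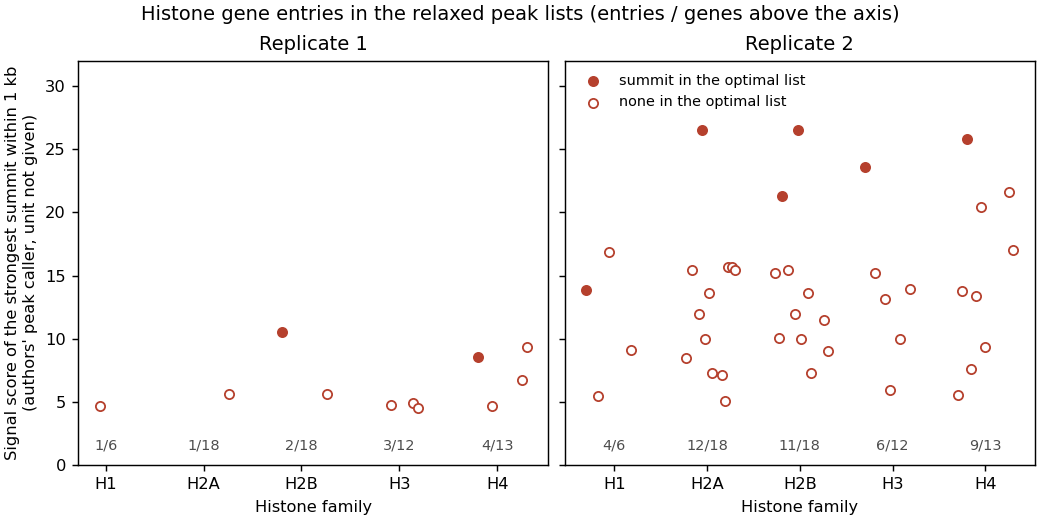
Signal score of the strongest relaxed-list summit within 1 kb of each histone gene, by family, in replicate 1 (left) and replicate 2 (right). Filled circles are genes with a summit in the optimal list, head-to-head genes that share an entry are drawn once each, and the fractions give genes with an entry of all genes in the family. Scores reach 10.49 in replicate 1 and 26.55 in replicate 2.

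Outside chromosome 13 no histone gene had an optimal summit. In the Hist2 cluster the relaxed list of replicate 2 held Hist2h4 (21.65), the H2A genes Hist2h2ab and Hist2h2ac (15.65, a shared entry), Hist2h2aa1 (7.09) and Hist2h2aa2 (5.09), the H3 gene Hist2h3b (13.96) and the H2B gene Hist2h2be (11.48). Hist2h2bb, Hist2h3c1 and Hist2h3c2 had no entry in either replicate. Replicate 1's relaxed list held Hist2h2ac and Hist2h2be (5.64, a shared entry), Hist2h3b (4.46) and Hist2h4. The Hist3 pair, Hist3h2a (15.45) and Hist3h2ba (8.98), had entries in replicate 2 alone.

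WGATAR matches were more frequent at histone summits of the optimal list than at other promoter summits, on very few peaks. They lay within 50 bp of the summit at 3 of 5 histone peaks, against 25.7% of other promoter peaks and 45.7% of those of like GC. In windows 500 bp to each side of the histone summits, 1 of 10 held a match. In replicate 2's list 3 of 10 histone peaks held one, against 20.9% of other promoter peaks and 37.8% of those of like GC, and 5 of 20 flanking windows did. None of the H4 summits printed or described above held WGATAR. The octamer ATTTGCAT, which lay at 1 of 5 optimal and 2 of 10 replicate 2 histone summits, occurred at 0.25% and 0.347% of other promoter summits. Histone promoters often hold the octamer without a peak. In the wider promoter window described next it occurred in 22.4% of the 67, and in 11 of the 56 with no thresholded summit.

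Across whole promoters, from 250 bases before to 50 after the first start site and on both strands, WGATAR was no more common at histone genes. It occurred in 18 of 67 (26.9%), against 27.0% of all other promoters and 40.3% of those of like GC in the same window. A control motif, WTATGC, occurred in 26.9% of histone promoters, against 10.2% of all other promoters and 14.8% of those of like GC. Its letters can overlap the octamer ATTTGCAT, as they do in Hist1h2ab and Hist2h2ac. It occurred in 7 of 18 H2A and 7 of 18 H2B promoters, so it is no neutral baseline for WGATAR here. Among H3 promoters 8 of 12 held WGATAR, 5 of 18 H2B, 4 of 18 H2A, 1 of 6 H1 and 0 of 13 H4. Of the 11 genes with a summit in any thresholded list 6 held it, against 12 of the 56 without. The 6 include the head-to-head pairs Hist1h2bk with Hist1h2ah and Hist1h2bg with Hist1h2ae. Genes of such a pair share a peak and overlapping promoter sequence, so they are not independent. For Hist1h2be, also among the 6, the counted summit lies at an annotated start 35.1 kb from its start codon, in an untranslated region of Hist1h1e. The shared summit of Hist1h2bg and Hist1h2ae had no WGATAR match within 50 bp. The same split over other genes is not given here.

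The motifs known for histone promoters were frequent, which describes the genes and not GATA4. CCAAT occurred in 83.6% of histone promoters, against 42.5% of other promoters of like GC and 38.7% of all others. TATAAA occurred in 55.2%, against 20.3% at like GC and 12.4% of all others. ATTTGCAT occurred in 22.4%, against 2.35% at like GC and 1.51% of all others, and all 15 such promoters belonged to H2A (7) or H2B (8) genes. The H4-specific letters GGTCCG occurred in 12 of 13 H4 promoters, and in 22.4% of all histone promoters against 4.12% at like GC and 10.1% of all others. The letters AAACACA of H1 promoters occurred in 4 of 6 H1 genes, and in 13.4% of all histone promoters against 9.78% at like GC and 6.32% of all others. The SP-type letters GGGCGG occurred in 41.8%, against 17.7% at like GC and 44.9% of all others. The ETS-type letters MGGAAR (M is A or C) occurred in 53.7%, against 66.9% at like GC and 65.4% of all others.

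**Figure D5:**
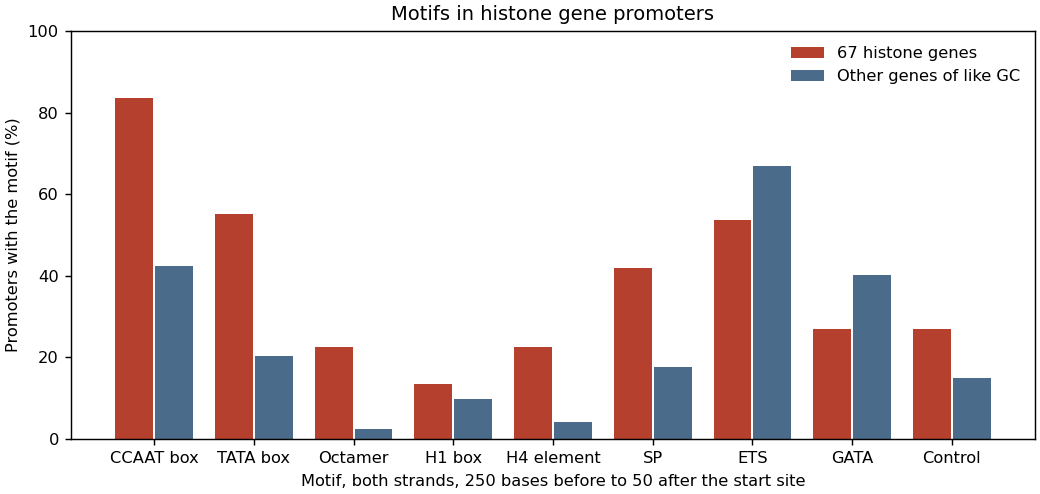
Percent of promoters holding each motif on either strand, for the 67 histone genes and for other genes of like GC. CCAAT (83.6% against 42.5%) and TATA boxes (55.2% against 20.3%) are higher at histone genes, and the GATA motif is lower (26.9% against 40.3%).

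A GATA motif in a histone promoter did not have to come with a peak. RefSeq promoters on GRCm38.p6 were matched for 62 of 67 histone genes, and 3 are shown, each as the 250 bases before the start site in the direction of transcription. Hist1h3i at chr13:21783398-21783647, minus strand, had no summit in any thresholded list and holds 2 WGATAR matches, in capitals. Hist1h2bk at chr13:22035571-22035820, plus strand, had a summit, and its 3 CCAAT matches are in capitals. It also holds 1 WGATAR match, agataa near its end, left in lower case. Hist1h4c at chr13:23698459-23698708, minus strand, had a summit, with 2 CCAAT matches in capitals and no WGATAR match.
Hist1h3i: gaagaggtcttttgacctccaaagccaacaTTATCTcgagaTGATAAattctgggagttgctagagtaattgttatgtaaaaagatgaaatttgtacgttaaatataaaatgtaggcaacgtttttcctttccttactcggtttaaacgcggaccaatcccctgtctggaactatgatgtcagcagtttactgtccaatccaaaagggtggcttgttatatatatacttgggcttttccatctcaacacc
Hist1h2bk: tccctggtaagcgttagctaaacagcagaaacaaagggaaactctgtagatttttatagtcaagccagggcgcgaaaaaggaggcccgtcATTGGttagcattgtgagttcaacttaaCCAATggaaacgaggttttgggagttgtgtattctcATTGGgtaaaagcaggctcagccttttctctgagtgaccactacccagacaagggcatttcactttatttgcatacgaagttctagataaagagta
Hist1h4c: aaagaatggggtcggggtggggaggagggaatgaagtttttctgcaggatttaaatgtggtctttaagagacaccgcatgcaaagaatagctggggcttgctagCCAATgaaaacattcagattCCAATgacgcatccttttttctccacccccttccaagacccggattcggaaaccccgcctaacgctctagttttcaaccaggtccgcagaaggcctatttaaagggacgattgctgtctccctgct

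Promoter summits were counted in the same way at genes whose products work with or beside these histones. Of 14 genes taken as replication-independent histone genes, 3 (21.4%) had an optimal summit, against 27.3% of other genes of like GC. These were Cenpa, the centromeric H3 (rank 3955), H2afz, which encodes H2A.Z (rank 7862), and H2afy, which encodes macroH2A (rank 20946). Of 18 genes for histone gene transcription and 3′ end processing, 8 (44.4%) had one, against 29.6%. They included Zfp473, a zinc-finger protein of histone pre-mRNA processing (rank 5799), and Slbp, which binds the stem-loop (rank 8632). They also included Casp8ap2, a histone locus body protein (rank 15242), Npat, the activator of histone gene transcription (rank 21679), and Hinfp, which binds H4 promoters (rank 21827).

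Of 10 histone chaperone genes, 5 (50%) had an optimal summit, against 30.8% at like GC, with Asf1a at rank 2282 and Chaf1b, a subunit of chromatin assembly factor 1, at rank 5520. Of 25 S phase genes, 13 (52.0%) had one, against 29.3%. Mcm7, a subunit of the replicative helicase, ranked 1616 and was in the lists of both replicates, and Pold1, a DNA polymerase subunit, ranked 4121. In the later pooled list 6 of the 25 S phase genes and 6 of the 10 chaperone genes had a summit. So had 7 of the 18 processing genes and 2 of the 14 replication-independent genes, beside 21.9% of all other genes. In the same order replicate 2's list held 11, 6, 7 and 5, and the conservative list 1, 0, 2 and 1. Replicate 1's list held 1, 0, 0 and 0. Shares over all protein-coding genes in those lists are given above. These gene lists are counted as they stand, and no difference between them and the histone genes was tested.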

How the data were processed

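GATA4 ChIP-seq of 2 whole-liver samples was read from the peak lists the authors deposited on mm10. Per the README text the authors deposited, the relaxed, optimal and conservative lists come from an earlier run of the authors' processing, and the thresholded replicate lists and a pooled one from a later run. The peak caller and the aligner were not given in the sources used here, and the read depth is unknown. Column 7 is the authors' signal score, deposited without a unit. Column 5 of the thresholded lists is a score the authors deposited, which from its values is 125 times the negative log2 of the irreproducible discovery rate (IDR), capped at 1000. Column 10 is the offset of the summit, deposited by the authors. No column held values of another series.

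Of 24083 deposited optimal peaks, 24050 on chromosomes 1 to 19, X and Y were used. Genes came from GENCODE mouse release 21 and sequence from GRCm38.p6. A gene counted when a summit lay within 1 kb of any annotated start, and a peak shared by several genes counted once as a peak. Shares of other genes were weighted to the histone genes' GC bins of 5 points. Words of 32 bases were searched on both strands of the genome. Motifs were searched within 50 bp of summits, matched on GC 50 to 100 bp beside the summit. The matching and motif code was tested on simulated data. Python 3.11.15, numpy 2.4.6 and pandas 2.3.3 were used.

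The text names every histone gene outside Hist1, those with the strongest peaks, those in the conservative or replicate 1 list, and at most 6 genes of each other list. The genes of those lists, like the histone genes, were chosen with earlier results of these data known. No test was run: there is 1 group, and genes of a cluster are not independent. Intervals are 95% Wilson intervals and cover counting error only.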

Additional observations from a re-analysis of the deposited data

How the results depend on the processing

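The histone share of 8.96% moved by less than its interval with the later pooled list, an IDR of 0.01, windows of 500 bp and 2.5 kb, peak overlap, merged promoters and start codons. It was 1.49% in the conservative list and 20% among the 10 histone genes with at most 10% repeated words. Leaving out a replicate by using the other's own list gave 0 to 13.4%, the low end without replicate 2. The cause was not tested.

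The like-GC share of 23.4% was 5.01% in the conservative list, 15% at an IDR of 0.01, 21.2% within 500 bp, 27% within 2.5 kb, 18% for merged promoters and 1.74 to 28.6% with one replicate left out. By match it was 12.4% (GC near the start), 39.1% (CpG), 9.45% (single exon), 20% (1 start site), 39.5% (divergent), 14.8% (GC and repeated words in 2 classes), 8.59% and 5.75% (in 4 classes, GC over 1 kb or near the start), 16.1% among genes with at most 10% repeated words, and 16.5% measured from start codons. The matches on repeated words and the start codons were chosen after seeing the data.

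WGATAR lay at 60% of histone summits (3 of 5), at 100% in the conservative list (1 of 1), at an IDR of 0.01 (2 of 2) and within 100 bp (5 of 5), and at 30% without replicate 1. Shares at other promoter peaks are not given here for the settings with 100%. A wider window holds a match more often at any summit, so these values add no weight to the 3 of 5. The median percentile of 43.1 stayed within the spread of the peaks. Replicate 1's list holds no histone summit and gave neither value. No paired analysis was possible because the samples form 1 group.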

Other observations

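Most GATA4 peaks within the histone clusters were not at histone genes. The distal Hist1 stretch held 14 summits of the optimal list, and the strongest (rank 449) lay 2535 bp from the start of Slc17a3, a gene for a membrane transporter of the SLC17 family. Summits at ranks 2912 and 4415 lay inside its neighbour Slc17a2, and those at ranks 3999 and 7516 inside Slc17a4. Hfe, the gene mutated in hereditary haemochromatosis, had a summit 112 bp from its start at rank 17221. Replicate 1's list held 3 summits in this stretch, none at a histone gene.

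The proximal Hist1 stretch, which holds 31 transfer RNA genes, had 4 optimal summits. One was the Hist1h2bk peak, one lay 11 bp from the phenylalanine transfer RNA gene n-TFgaa1 at rank 21381, and the other two lay 514 and 783 bp from the methionine transfer RNA gene n-TMcat8. The spans of the Hist2, Hist3 and Hist4 genes held 0 optimal summits.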
